A study of Sorghum bicolor with 63 samples.

Results

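The deposited tables hold 35567 genes of sorghum through deprivation of nitrate and its return. Of these, 1 gene, SORBI_3001G314400, met 3 criteria for a higher level in lateral than in primary root. It was chosen from its own values: over 15 libraries of each root, its lowest lateral root library lay above its highest primary root library, its mean log2(TPM + 1) was higher in lateral root by more than 2, and its mean lateral root level was at least 5 TPM. TPM, the unit of all levels here, scale a gene's reads by transcript length and by the total of the library, so that levels of different genes can be compared. The 15 libraries were those at 0.5, 3, 24 and 48 h and the 48 h control, so the differences between roots at these times are a description. The roots were tested against each other only at 0 and 24.5 h, and against leaf at 24.5 h, in libraries that played no part in the choice. Comparisons between times within a root, and the comparison of such a change between roots, do use libraries of the choice. The same 3 criteria turned round, primary above lateral root, held for 17 genes.

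All plants were of the inbred line BTx623, grown in hydroponics for 12 days on sufficient nitrate and 21 days after germination at the start, with tissue of 5 plants pooled per library by the labels. The 7 groups of each tissue, with 3 libraries each, were plants on normal nitrogen (0 h), after 0.5, 3 and 24 h in solution without nitrate, at 24.5 and 48 h after nitrate had been put back at 24 h, and a group labelled nitrogen recovery control at 48 h, whose nitrate supply the labels do not describe. The labels and the paper differ on whether the last recovery sample came 48 or 24 h after the return, and on how many plants were pooled. Leaf, lateral root and primary root gave 21 libraries each and 63 in all.

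The primary root is the root that emerges from the embryo, and lateral roots are the branches that form on it from cells of the pericycle. Lateral roots make up much of the absorbing surface of a root system, and their growth responds to local nitrate as well as to the nitrogen status of the shoot. SORBI_3001G314400 has no gene name or role in the deposited tables, in the annotation of the study's network or in the reference table used here, so it is described by its ID, and no sequence of it is shown.

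Among the root libraries, 3 stood apart. Replicate 1 of lateral root at 0 h had 4281 TPM of LHCB5 (a chlorophyll-binding protein of the light-harvesting antenna), where the other lateral root libraries had 2.23 to 56.6 TPM and leaf libraries 1028 to 6274 TPM. Across genes its correlation with leaf 48 h control replicate 3 was 0.992 and with its own group 0.602 on average, so it went against its label. In primary root at 24.5 h, replicate 3 had 30736 genes at 1 TPM or more, above the 20898 to 21576 of all other primary root libraries, and replicate 1 was nearest to lateral root 24.5 h replicate 3 (r = 0.975). The differences of SORBI_3001G314400 between tissues at 0 and 24.5 h and its changes from 24 to 24.5 h in primary root are given with and without them. No marker of lateral against primary root was used, so the labels of the roots were checked only against leaf genes.

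In lateral root, SORBI_3001G314400 was expressed at a moderate level. Its TPM in replicates 1, 2 and 3 were 13.8, 20.3 and 18.8 at 0.5 h and 16.1, 27.9 and 22.5 at 3 h. They were 29.1, 21.3 and 21.7 at 24 h. After nitrate had been returned they were 18.4, 16.4 and 19.6 at 48 h, and those of the 48 h control were 17.5, 15.2 and 12.8. The 3 highest of these 15 libraries were taken at 3 or 24 h without nitrate. The libraries of 24 h overlapped in range with those of 3 h and lay above all of 0.5 h, 48 h and the 48 h control, a separation found in 24.5%, 20.8% and 17.5% of the genes tested in lateral root. They also lay above all libraries of 24.5 h, as in 17.4% of the genes. The mean was 19.4 ± 4.66 TPM (SD, n = 15), above 56.6% of the genes with a mean of at least 1 TPM in lateral root.

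In primary root the same gene was low. Replicates 1, 2 and 3 had 3.39, 1.85 and 1.32 TPM at 0.5 h and 6.53, 2.24 and 7.27 TPM at 3 h. At 24 h they had 2.96, 4.56 and 4.21 TPM. At 48 h they had 4.59, 1.99 and 3.41 TPM, and in the 48 h control 2.32, 4.12 and 5.04 TPM. The 2 highest values were both from 3 h, and the third library of that group was as low as those of other times. The mean was 3.72 ± 1.72 TPM (SD, n = 15), above 19.0% of the genes with a mean of at least 1 TPM there.

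The ratio of the means of these 15 libraries was 5.22, a difference of 2.17 on the log2(TPM + 1) scale, where the median difference over the 23380 genes with at least 1 TPM in at least 3 of the libraries was 0.02. Time by time, the ratio of lateral to primary root means was 8.07 at 0.5 h, 4.15 at 3 h, 6.15 at 24 h, 5.43 at 48 h and 3.96 in the 48 h control. Among these times the ratio was lowest in the control and highest at 0.5 h, where the primary root mean was at its lowest (2.19 ± 1.07 TPM, SD, n = 3). At the times not used for the choice it went past both, with 9.16 at 0 h and 3.51 at 24.5 h. Each of those times holds a library that stood apart. In these bulk samples, fewer cells that express the gene and less of its RNA per cell cannot be told apart. TPM keep no record of depth, so the precision of each level rests on the spread between libraries.

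**Figure D1:**
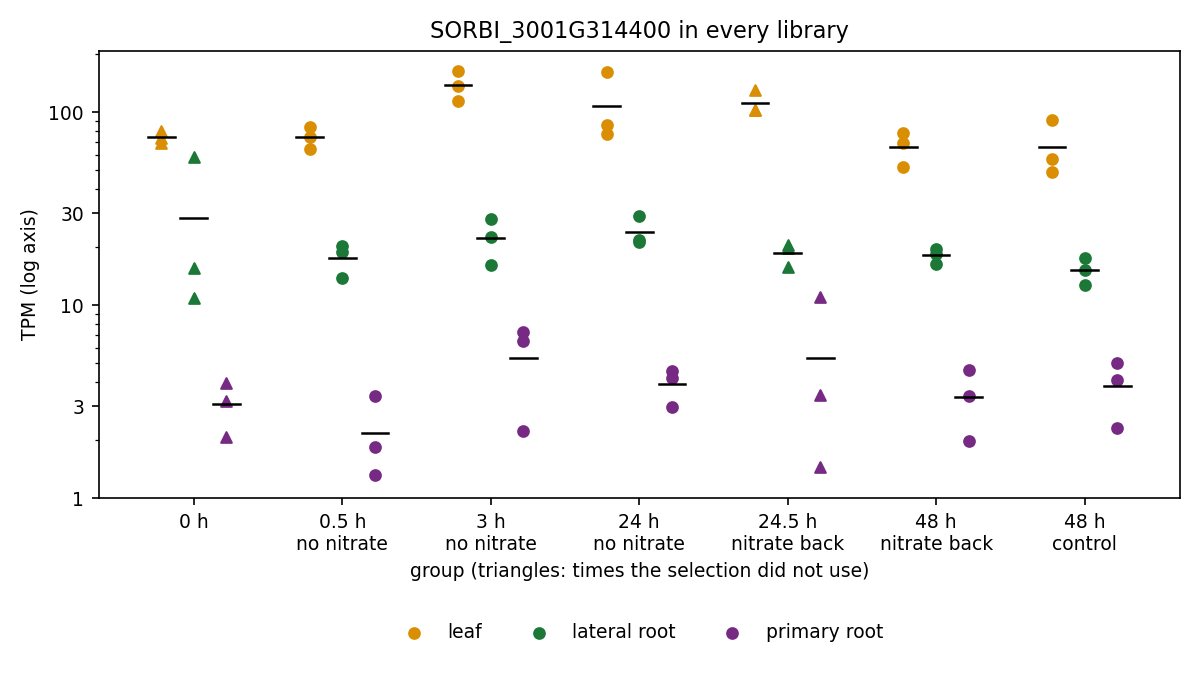
TPM of SORBI_3001G314400 on a log axis in each of the 63 libraries, by group and tissue; points are libraries, black bars are means of 3 libraries, and triangles are the 0 and 24.5 h groups that the selection did not use. Lateral root lay between leaf and primary root in every group, and lateral root 0 h replicate 1 (58.2 TPM) reached the range of leaf libraries of other groups.

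The highest levels were in neither root. In leaf, SORBI_3001G314400 had 69.5, 79.8 and 73.8 TPM in replicates 1, 2 and 3 at 0 h and 74.3, 64.7 and 83.3 TPM at 0.5 h. At 3 h it had 136, 114 and 163 TPM, each above every leaf library of 0 and 0.5 h. At 24 h replicate 2 stood out with 161 TPM beside 77.4 and 85.9 TPM. The leaf libraries of 24.5 h had 129, 102 and 103 TPM. Those of 48 h had 77.7, 68.9 and 52.0 TPM, and those of the 48 h control 91.0, 49.0 and 56.9 TPM, which include the lowest leaf library. Replicate 1 of this control, with 91.0 TPM, also stood apart. Its LHCB5 of 1028 TPM was the lowest of the leaf libraries, and across genes it was nearest to leaf 3 h replicate 2 (r = 0.970).

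Over the times used for the choice, the leaf mean was 90.3 ± 36.8 TPM (SD, n = 15), above 91.0% of the genes with a mean of at least 1 TPM in leaf. Lateral root had 21.5% of this leaf level and primary root 4.12%. The gene was thus higher in leaf than in either root. Of the 112 genes whose lateral root libraries all lay above all primary root libraries at a mean of at least 5 TPM, 4, this gene included, were also higher in every leaf library than in every lateral root library, and 76 were lower in every leaf library than in every lateral root library. Shares over all genes were not computed for these libraries, so the counts describe only the 112 genes. At 24.5 h, with 3 libraries per tissue, lateral root lay above leaf without overlap in 60.3% of all genes tested.

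In the order of the 21 group means, leaf at 3 h came first (137 ± 24.9 TPM), followed by leaf at 24.5 h (111 ± 15.7 TPM) and 24 h (108 ± 45.9 TPM). Next were the other leaf groups, down to the 48 h control (65.6 ± 22.3 TPM), then the 7 lateral root groups, with 0 h first (28.2 ± 26.1 TPM) and the 48 h control last (15.1 ± 2.35 TPM). The 7 primary root groups closed the order, with 3 h first (5.35 ± 2.71 TPM) and 0.5 h last (2.19 ± 1.07 TPM; SD, n = 3 in all groups). Neighbours in this order overlapped in range at every step but 1, that from lateral root in the 48 h control (lowest library 12.8 TPM) to primary root at 3 h (highest library 7.27 TPM). At the step from leaf to lateral root, the overlap came from lateral root 0 h replicate 1 alone.

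The libraries at 24.5 h, 0.5 h after the return of nitrate, had no part in the choice of the gene. SORBI_3001G314400 had 20.5, 19.7 and 15.7 TPM in lateral root and 3.44, 1.45 and 11.1 TPM in primary root, without overlap. Such a separation, lateral above primary root, was found in 8.79% of all genes tested at this time. The gene was higher in lateral root by 1.94 ± 0.46 on the log2(TPM + 1) scale (SE, 95% confidence interval 0.92 to 2.97), with an adjusted p of 0.0458 (limma, Benjamini-Hochberg over 23442 genes). It passed the threshold, an adjusted p under 0.05 with a difference over 1, which 0.209% of the genes passed in this direction. The call was near its limit: it was lost when any library of either root other than primary root replicate 3 was left out (adjusted p 0.0665 to 0.171). Without primary root replicate 1, the library nearest to a lateral root library, the difference was 1.85 ± 0.54 with an adjusted p of 0.0893. Without primary root replicate 3, the difference was 2.57 ± 0.25 with an adjusted p of 0.00421, and 0.781% of the genes passed in this direction.

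At 0 h, before nitrate was withdrawn, SORBI_3001G314400 had 58.2, 15.6 and 10.9 TPM in lateral root and 2.09, 3.95 and 3.21 TPM in primary root. The groups did not overlap, as for 9.66% of all genes tested. With all 3 lateral root libraries, the difference was 2.50 ± 0.54 (SE, 95% confidence interval 1.25 to 3.75) and missed the threshold, with an adjusted p of 0.0580 (limma, 22821 genes), where 0.228% of the genes passed in this direction. Without the leaf-like replicate 1 the difference was smaller, 1.81 ± 0.23, and passed with an adjusted p of 0.00569, where 1.92% of the genes passed in this direction. With a spread estimated over all 21 groups it also passed, with an adjusted p of 4.31e-06. That spread included the libraries of the choice, so this value is not independent of the choice. It was also shared by all groups, although the 3 lateral root libraries at 0 h lay far apart.

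In the same fit at 24.5 h, SORBI_3001G314400 was higher in leaf than in primary root by 4.46 ± 0.46 on the log2(TPM + 1) scale (limma, adjusted p = 1.07e-05), in a comparison in which 13.9% of the genes passed in this direction. It was lower in lateral root than in leaf by 2.51 on this scale (difference -2.51 ± 0.46, limma adjusted p = 0.000595), where 15.6% of the genes passed in this direction. Over all genes the median was -0.81 for leaf minus primary root and 0.77 for lateral root minus leaf, in TPM not rescaled between tissues. Without primary root replicate 3 the difference of leaf from primary root was 5.08, and without replicate 1 it was 4.36, both called. The 3 libraries of leaf, lateral root and primary root did not overlap with each other at this time. Leaf above primary root without overlap was found in 19.1% of the genes tested. For leaf above lateral root this share was not computed. Both comparisons of leaf with a root share their libraries with that of the roots.

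**Figure D2:**
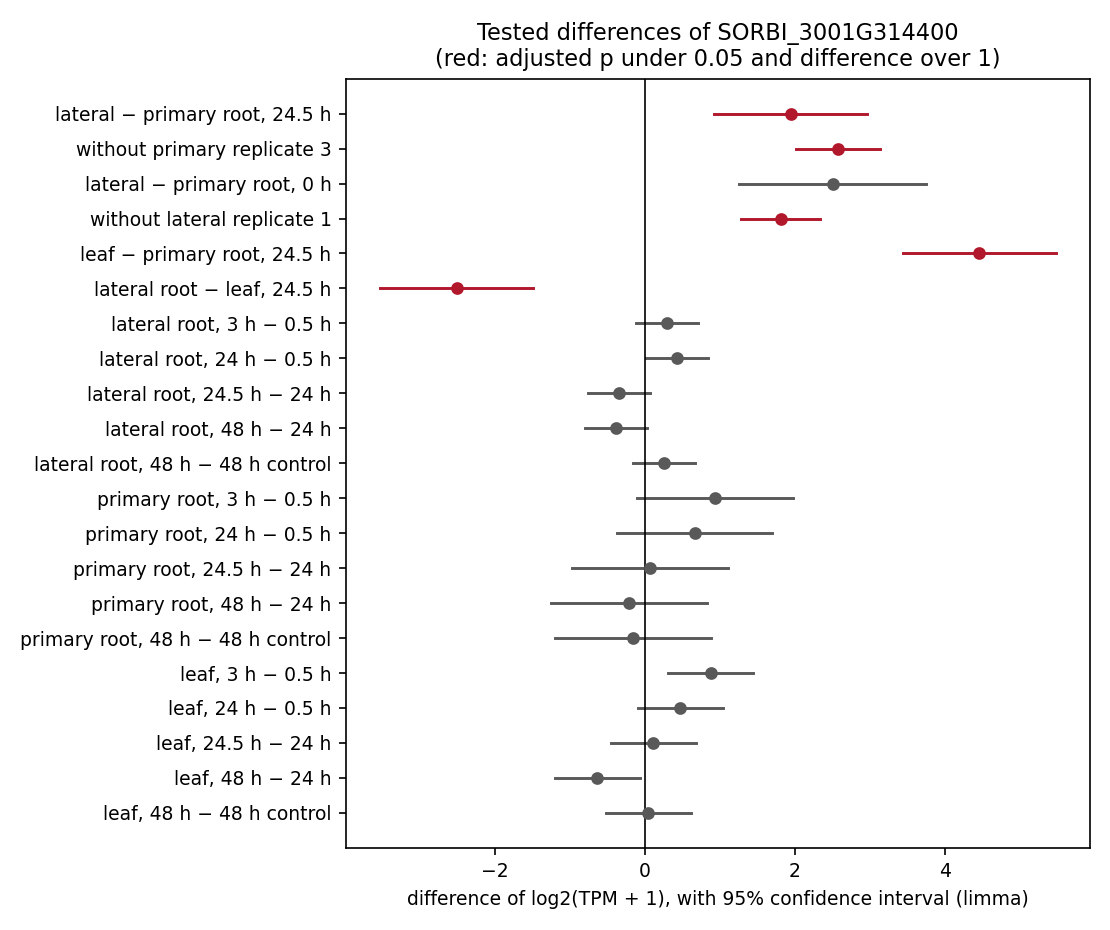
Differences of log2(TPM + 1) of SORBI_3001G314400 with their 95% confidence intervals from limma, between tissues at the times that the selection did not use and between times within a tissue; red marks an adjusted p under 0.05 with a difference over 1. Lateral minus primary root was 1.94 at 24.5 h and 2.50 at 0 h, whereas no difference between times passed.

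Between times, the gene passed the threshold in none of the 5 comparisons of lateral root. Those of 3 and 24 h against 0.5 h were between groups that were all without nitrate. Only those of 24.5 and 48 h against 24 h set returned nitrate against none. The labels give no group kept on nitrate at 0.5, 3, 24 or 24.5 h in any tissue, so hour and nitrate cannot be told apart. The libraries compared, all but those of 24.5 h, were used for the choice. It required each of them to lie above every primary root library and so bears on their spread. In lateral root, the level at 24 h without nitrate differed from that at 0.5 h by 0.43 ± 0.20 on the log2(TPM + 1) scale (unadjusted p = 0.0433, limma adjusted p = 0.117). The differences were 0.30 ± 0.20 for 3 h against 0.5 h, -0.34 ± 0.20 for 24.5 h against 24 h and -0.38 ± 0.20 for 48 h against 24 h. For 48 h against the 48 h control the difference was 0.25 ± 0.20. With a library left out, the difference of 3 h from 0.5 h ran from 0.12 to 0.50, that of 24 h from 0.5 h from 0.27 to 0.53 and that of 24.5 h from 24 h from -0.42 to -0.20. The difference of 48 h from 24 h ran from -0.46 to -0.24 and that from its control from 0.14 to 0.35, and none of these passed. The 95% confidence intervals of the 5 differences reached from -0.80 to 0.84 at their extremes, so that a change larger than these bounds lay outside every interval, and smaller ones could not be resolved. Of the 22903 genes tested in lateral root, 9.85% passed for 3 h and 11.8% for 24 h against 0.5 h, 3.94% for 24.5 h and 7.51% for 48 h against 24 h, and 2.03% for 48 h against its control.

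In primary root the spread was wider, and none of the 5 comparisons passed. SORBI_3001G314400 differed by 0.93 ± 0.49 between 3 h and 0.5 h (limma adjusted p = 0.205) and by 0.66 ± 0.49 between 24 h and 0.5 h (adjusted p = 0.396). The other differences were 0.06 ± 0.49 for 24.5 h against 24 h, -0.21 ± 0.49 for 48 h against 24 h and -0.16 ± 0.49 for 48 h against its control. Without primary root 24.5 h replicate 3, the difference of 24.5 h from 24 h was -0.56, and without replicate 1 it was 0.16. As in lateral root, all libraries but those of 24.5 h were used for the choice. The intervals reached from -1.25 to 1.97, and so held changes past the threshold of 1 in both directions. Of the 23045 genes tested, 4.79% passed for 3 h and 9.35% for 24 h against 0.5 h, 3.88% for 24.5 h and 4.63% for 48 h against 24 h, and 0.590% for 48 h against its control.

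The change at the return of nitrate (24.5 h against 24 h) differed between lateral and primary root by -0.41 ± 0.54 (interaction, limma adjusted p = 0.939). This test gave 0 calls among 24045 genes (0.00%), and 1541 genes had an unadjusted p under 0.05. Without primary root 24.5 h replicate 3 the difference was 0.22. The interaction contains lateral minus primary root at 24 h, which the choice required to be above 0. The choice thus favours a negative value here.

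In leaf, comparisons between times were added after the data had been seen. The difference of SORBI_3001G314400 was 0.87 ± 0.27 for 3 h against 0.5 h (95% confidence interval 0.31 to 1.44, unadjusted p = 0.00467), under the limit of 1, with a limma adjusted p of 0.0735 over 19754 genes. The adjusted p was under 0.05 with median-of-ratios scaling (0.0454), quantile normalization (0.0486) and the wider fit with 0 h (0.0459), at differences of 0.77, 0.81 and 0.87. All 3 leaf libraries of 3 h lay above all of 0.5 h, as in 21.2% of the genes. The level at 48 h differed from that at 24 h by -0.64 ± 0.27 (adjusted p = 0.120). The remaining differences were 0.47 ± 0.27 for 24 h against 0.5 h, 0.11 ± 0.27 for 24.5 h against 24 h and 0.04 ± 0.27 for 48 h against its control. Of the leaf genes, 2.90% passed for 3 h and 3.84% for 24 h against 0.5 h, 0.167% for 24.5 h and 7.62% for 48 h against 24 h, and 0.00506% for 48 h against its control.

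Since the gene was highest in leaf, its root levels were set beside those of 2 leaf genes that the study's network names, LHCB5 and PPDK2 (pyruvate orthophosphate dikinase, which regenerates the acceptor of carbon dioxide in C4 photosynthesis). In the 15 lateral root libraries used for the choice, LHCB5 was at 0.0511% to 1.30% and PPDK2 at 0.0743% to 0.819% of their leaf means, whereas SORBI_3001G314400 was at 14.1% to 32.2% of its own. Over these libraries LHCB5 averaged 13.8 TPM in lateral and 22.8 TPM in primary root, where 3 h replicate 3 alone had 133 TPM, and PPDK2 averaged 41.3 and 104 TPM. By time, LHCB5 was higher on average in lateral than in primary root at 48 h (34.4 and 17.9 TPM) and in the 48 h control (15.2 and 11.1 TPM). Both leaf genes were chosen after the data had been seen, and the part of leaf RNA in the lateral root values was not tested.

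In primary root, the libraries with the most SORBI_3001G314400 were among those with the most LHCB5. Replicate 3 of 24.5 h had 11.1 TPM of the gene with 268 TPM of LHCB5, which were 12.3% and 6.15% of the leaf means. Replicate 3 of 3 h had 7.27 TPM with 133 TPM of LHCB5, and replicate 1 of 3 h 6.53 TPM with 41.8 TPM of LHCB5. Other primary root libraries with raised LHCB5 did not have high levels of the gene: replicate 1 of 24.5 h had 3.44 TPM with 48.7 TPM of LHCB5, and replicate 2 of 48 h had 1.99 TPM with 36.9 TPM of LHCB5. The part of leaf RNA in the primary root values was not tested.

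**Figure D3:**
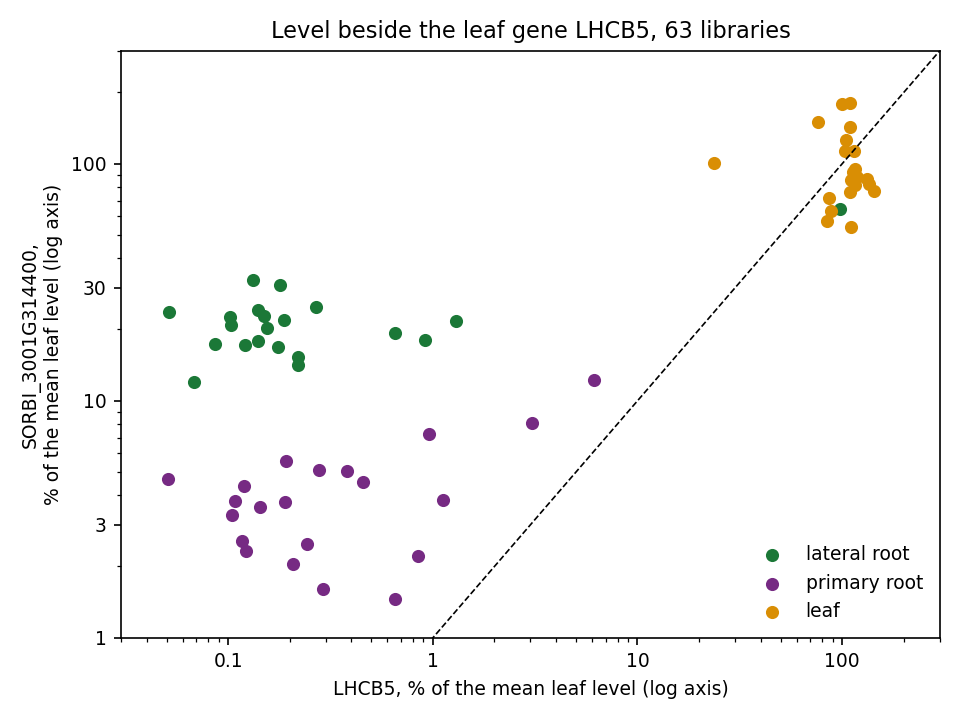
SORBI_3001G314400 against the leaf gene LHCB5, each as a percent of its mean over the 15 leaf libraries, on log axes, with a point for each of the 63 libraries and a dashed line where both percentages are equal. All lateral root libraries but the leaf-like one at 0 h lay at 12.0% to 32.2% for SORBI_3001G314400 and at no more than 1.30% for LHCB5, and the primary root library farthest to the right, at 6.15%, was replicate 3 of 24.5 h.

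Just inside the limits of the choice, SORBI_3001G314400 had a lowest lateral root library of 12.8 TPM against a highest primary root library of 7.27 TPM and a difference of 2.17. Lateral above primary root without overlap was seen in 113 of the 23380 genes with at least 1 TPM in at least 3 libraries (0.483%), and 112 of them had a mean of at least 5 TPM in lateral root. Just outside by the size of the difference, the nearest was SORBI_3001G086500, named MADS4 in the study's network and thus of the MADS-box family of transcription factors, with a difference of 1.94 and means of 9.59 TPM in lateral root, 1.84 TPM in primary root and 1.05 TPM in leaf. Next was SORBI_3004G156250, with a difference of 1.69, means of 6.79 and 1.37 TPM in the roots and 0 TPM in all leaf libraries used.

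Outside by overlap were 7 of the 8 genes with a difference over 2 and a mean of at least 5 TPM. The closest of them were SORBI_3003G172701 (difference 2.44) and SORBI_3006G011400 (2.12), each with 14 of 15 lateral root libraries above the highest primary root library. In SORBI_3009G023300, 0 of 15 lateral root libraries lay above the highest primary root library, which had 40.1 TPM.

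**Figure D4:**
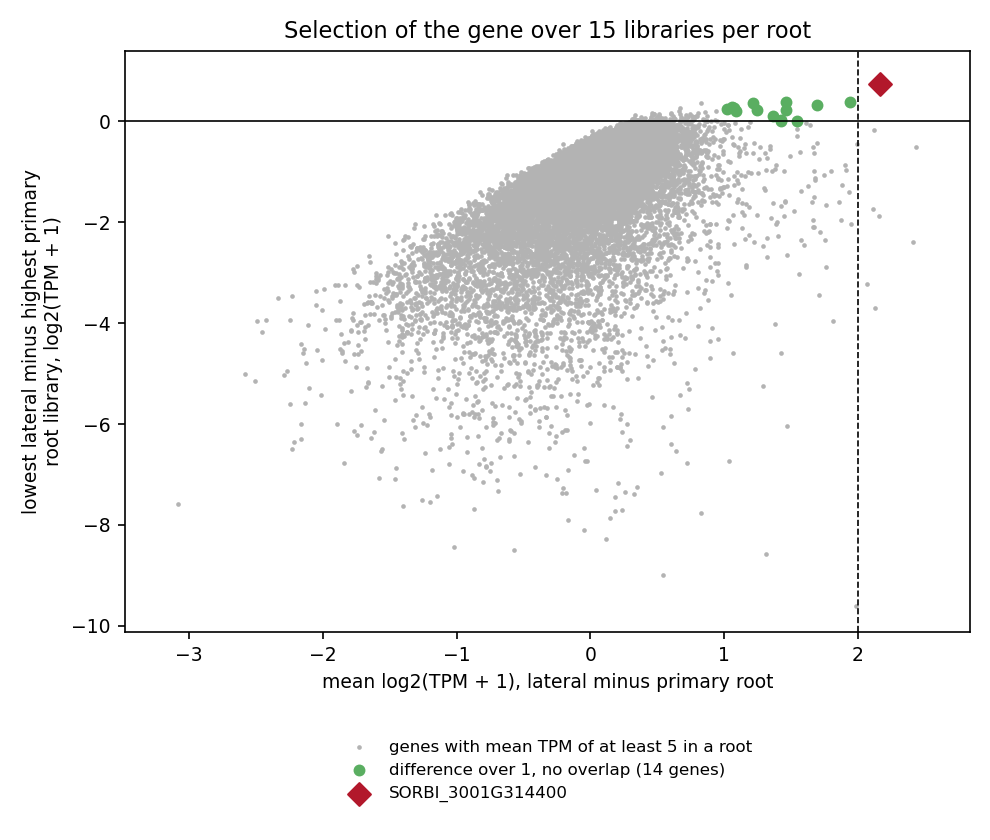
For genes with a mean of at least 5 TPM in either root, the mean difference of log2(TPM + 1) between lateral and primary root over 15 libraries each (horizontal) and the gap between the lowest lateral and the highest primary root library on the same scale (vertical; above 0, no overlap). SORBI_3001G314400 (red diamond) is alone beyond a difference of 2 with a gap above 0, and 14 genes (green) follow at a difference over 1.

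With the limit on the difference lowered to 1, 14 genes joined SORBI_3001G314400 to make 15, where the same limit gave 138 genes in the opposite direction. At 24.5 h, 14 of the 14 had a fitted difference above 0, with a median of 0.95 (range 0.08 to 1.57) beside -0.06 over all genes, and 2 of the 14 passed, SORBI_3001G470600 (1.39 ± 0.21, limma adjusted p = 0.0147) and SORBI_3005G166700 (1.27 ± 0.24, adjusted p = 0.0250), where 0.209% of all genes passed in this direction. Without primary root replicate 3, 8 of the 14 passed, with 0.781% of all genes. Without primary root replicate 1, 2 of the 14 passed, and the share of all genes was not computed for this setting. SORBI_3001G314400 had the largest difference of the 15 genes at this time, with all libraries and without either of these.

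At 0 h, 8 of the 14 genes had a difference above 0 and 2 passed, SORBI_3005G216800 (2.12 ± 0.37, limma adjusted p = 0.0412) and SORBI_3003G383300 (1.36 ± 0.24, adjusted p = 0.0413), where 0.228% of all genes passed in this direction. Their median was 0.20, and -0.21 over all genes. Without the leaf-like lateral root replicate 1, the median was 1.56 (range 1.18 to 2.17) beside 0.00 over all genes, and 14 of the 14 passed, with 1.92% of all genes. SORBI_3005G166700, with 0.349 TPM in leaf and 137 TPM in lateral root, had a difference of -1.13 with this library and of 1.50 without it. SORBI_3001G314400, which was higher in leaf, had a larger difference with the library (2.50) than without it (1.81). With it, the gene had the largest difference of the 15 at 0 h, and without it SORBI_3002G023000 (2.17), MADS4 (1.96) and SORBI_3004G156250 (1.92) had larger ones.

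**Figure D5:**
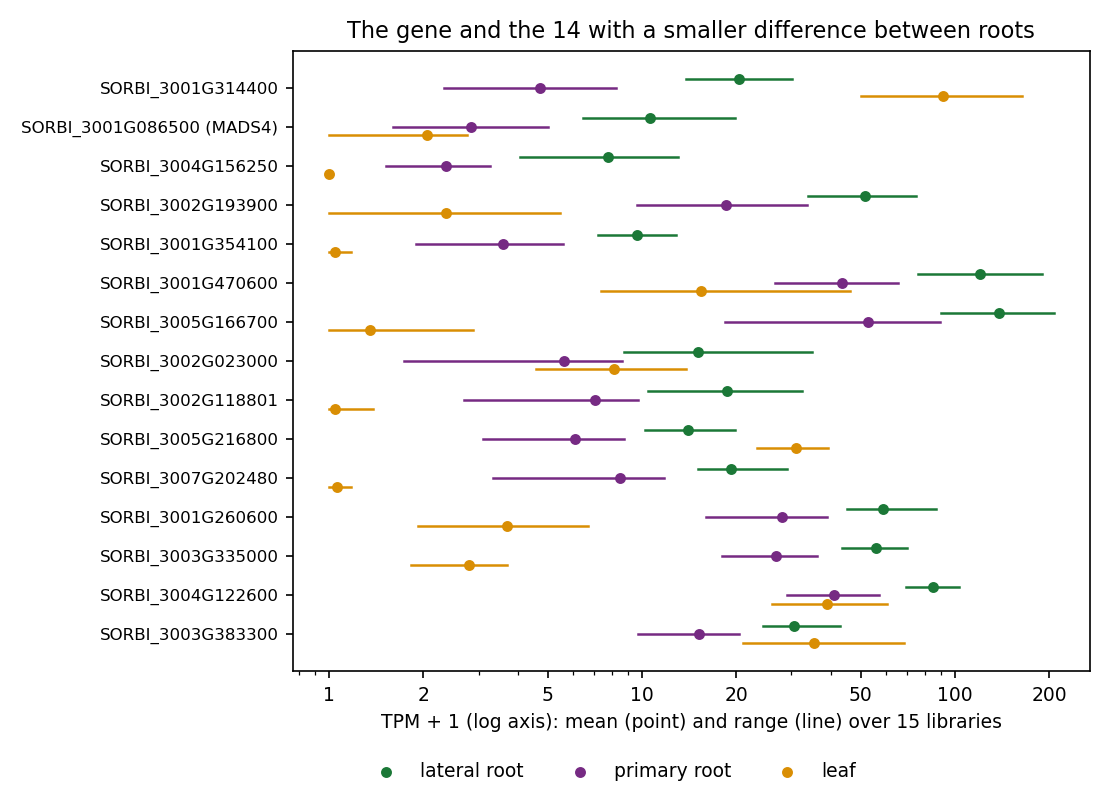
Mean (point) and range (line) of TPM + 1 on a log axis over 15 libraries in lateral root, primary root and leaf for SORBI_3001G314400 and the 14 genes that join it when the limit on the difference is 1, ordered by that difference. SORBI_3001G314400 has the highest mean in leaf (90.3 TPM), and 12 of the 14 other genes have a lower mean in leaf than in lateral root. A lower level in leaf was common: at 24.5 h, lateral root lay above leaf without overlap in 60.3% of all genes tested.

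Of the 14 genes, SORBI_3005G216800 was most like SORBI_3001G314400 in its order of tissues, with means of 30.1 TPM in leaf, 13.1 TPM in lateral root and 5.11 TPM in primary root, and it was the second largest difference (1.25) among the 4 genes that stepped down from leaf to lateral to primary root without overlap. At 24.5 h its difference between roots was 0.08 ± 0.28, where that of SORBI_3001G314400 was 1.94. The only other gene of the 14 with a higher mean in leaf than in lateral root was SORBI_3003G383300 (34.4 and 29.6 TPM).

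The genes most like SORBI_3001G314400 across all 63 libraries, chosen after the data had been seen by Pearson's r of log2(TPM + 1) among 25449 genes, were SORBI_3001G243200 (r = 0.937), SORBI_3004G228300 (0.930), SORBI_3008G003900 (0.929), SORBI_3001G233400 (0.924) and SORBI_3001G500800 (0.923). All 5 had their highest mean in leaf and a lower mean in primary than in lateral root, an order that a choice by likeness favours. The closest in the size of the steps was SORBI_3001G233400, with 86.6 TPM in leaf, 15.5 TPM in lateral root and 4.52 TPM in primary root. None has a name in the study's network. Over the 61 libraries without lateral root 0 h replicate 1 and primary root 24.5 h replicate 3, SORBI_3002G159700 (r = 0.926) took the place of SORBI_3001G500800 among the 5. These correlations describe 3 tissues more than 63 independent points, since libraries of a tissue share their level: within the 18 lateral root libraries after 0 h the most similar gene was SORBI_3006G180900 (r = 0.883), and within leaf SORBI_3002G387100 (r = 0.930), neither of which was among the 5.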

How the data were processed

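Poly(A) RNA of 63 libraries was sequenced as paired reads. The labels and methods name Trimmomatic for trimming, STAR for alignment to BTx623 v3.1.1 and StringTie for quantification. The authors deposited the result as TPM, 1 column for each library, which sums to 1000000 in every library and was not rescaled across libraries. The depth is unknown.

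Genes with at least 1 TPM in at least 3 libraries of a fit were tested on log2(TPM + 1) (pseudocount 1) with limma (version 3.58.1, R 4.3.3) under a mean-variance trend, with Benjamini-Hochberg adjustment over all genes tested. At 24.5 and 0 h the fit held the 3 tissues, over time the 6 groups of a tissue without 0 h, and for the interaction those of both roots. A call needs an adjusted p under 0.05 and an absolute difference over 1, and for the interaction the adjusted p alone. The fit was also run on simulated data, with independent noise of the same spread in every library for a given gene. No simulated library stood apart, so the run does not show how such libraries affect the calls at 0 and 24.5 h. Tables were handled with pandas 2.3.3 and NumPy 2.4.6, figures with matplotlib 3.10.9.

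The gene, the lists and the comparisons were chosen with earlier results of these data known. The rule for named genes took the member, its neighbours at the thresholds and members named in the study's network. Lists of gene families, cell type markers and promoter motifs had been planned on RefSeq names and sequences, but 0 of the 35567 IDs matched that table, so they were not used here. LHCB5 and PPDK2, from the study's network, took the place of leaf markers after the data had been seen.

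Replicates are libraries that the labels number 1 to 3. Each is a pool of plants, and p-values measure the spread between these pools. Same-numbered libraries deviated together (r over 0.1 in every pair, across genes) only for primary root at 48 h and its control (0.183, 0.347 and 0.255), where a replicate block changed no call. At 24.5 h the lateral and primary root pairs gave -0.09, -0.07 and -0.40. Alternatives were another pseudocount, filter, scaling, moderation or set of groups, a replicate block and each library left out.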

Additional observations from a re-analysis of the deposited data

How the results depend on the processing

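Of 300 values of SORBI_3001G314400 under alternatives, over 20 comparisons, 273 kept their direction and their side of the threshold. The comparison of leaf with either root at 24.5 h and those over time in lateral root kept both under every alternative run. At 24.5 h, lateral against primary root kept its difference of 1.94 but lost its call under several settings. These were no filter (limma adjusted p 0.0973), a mean TPM of at least 5 (0.0528), no trend (0.0529) and the replicate block (0.0757). Whether same-numbered libraries of the 2 roots came from the same plants is not known here. The call was also lost with a pseudocount of 0.1 (difference 2.24, adjusted p 0.0861). With a library left out the difference ranged from 1.42 to 2.57. At 0 h the difference of 2.50 gained a call in the wider fit, whose spread included the libraries of the choice. The difference ranged from 1.81 to 2.97 with a library left out. Without lateral root replicate 3 it was 2.97 and passed. Differences near 0 changed sign. Primary root at 24.5 h against 24 h was -0.00258 with a pseudocount of 0.1 and -0.0645 with quantile normalization. With a library left out it ranged from -0.56 to 0.59, primary root at 48 h against 24 h from -0.42 to 0.0305, and against its control from -0.41 to 0.0857. In leaf, 24.5 h against 24 h ranged from -0.0877 to 0.44 and 48 h against its control from -0.14 to 0.30. The interaction ranged from -0.93 to 0.22. The cause of these changes was not tested.

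The selection gave 15 genes with a difference over 1 and 0 with a difference over 3. It gave 3 genes with a pseudocount of 0.1 (adding SORBI_3001G086500 and SORBI_3004G156250), 2 with quantile normalization (adding SORBI_3001G086500), 0 with a mean of at least 20 TPM and 0 over all 21 libraries of each root, where the lowest lateral root library (10.9 TPM) fell under the highest primary root library (11.1 TPM). With no minimum level or with median-of-ratios scaling it gave SORBI_3001G314400 alone. Of the 14 genes of the wider selection, 1 to 8 passed at 24.5 h and 0 to 4 at 0 h under the alternatives, and 0 to 8 and 0 to 14 with a library left out. The share of all genes that passed in this direction moved too. At 24.5 h it was 0.209% as planned and 0.781% without primary root replicate 3. At 0 h it was 0.228% as planned and 1.92% without lateral root replicate 1. It was not computed for the other settings, so the ranges cannot be set against it. The depth behind the TPM is unknown, so the limit it sets on low primary root values cannot be given.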
